A study of Mus musculus with 2 samples.

Results

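The class that the authors' cell table names GP held 1514 of 11562 listed crypt cells of the mouse ileum. Its members were taken from that table by their class name and matched to the count matrices by barcode. They were 685 of 5305 cells (12.9%, 95% exact binomial interval 12.0 to 13.8%) in replicate 1 and 829 of 6257 cells (13.2%, 12.4 to 14.1%) in replicate 2. What the abbreviation stands for is not stated. The mice were Atoh1CreER-T2;R26RTom: a tamoxifen-dependent Cre tied to Atoh1 switches on the red reporter Tom, so that cells with Atoh1 activity and their descendants are marked. All cells of the series used here share this genotype, 2 intraperitoneal doses of 1 mg/mL tamoxifen 24 h apart, harvest 12 h after the second dose, and a sort for live Tom+ cells, so no untreated or Tom-negative cells stand beside them. The 2 libraries form 1 group, and no source used here says whether they came from separate animals. Villi were removed on a 70 µm strainer before the crypts were split into cells. The sample titles call the cells WT, and no age is given for the mice.

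Cells of the intestinal crypt choose between an absorptive and a secretory fate through Notch signalling: cells that escape the Notch signal turn on the transcription factor ATOH1, express Notch ligands themselves and leave the cell cycle. Their descendants are goblet cells, which secrete the gel-forming mucin MUC2 and the proteins packed with it, Paneth cells, which secrete lysozyme and alpha-defensins at the crypt base, enteroendocrine cells, which make hormones, and tuft cells. SPDEF, an ETS factor downstream of ATOH1, promotes goblet and Paneth maturation. The other 11 classes of the cell table are ISC, SEC-PRO, GOBLET-PRE, GOBLET, PANETH-PRE, PANETH, EEC-PRE, EC, NON-EC, TUFT and ENTERO-PRO, and GP is compared with each of them below. The authors' classes were made from the expression of these same cells, so the differences between classes describe them and are not independent tests.

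Of the 3 genes proposed as marks of GP cells, none was found in GP cells alone. Levels are UMI counts summed over the cells of a class in each library and scaled to a common total (CPM), and a pair of values gives replicate 1 and replicate 2 in that order. Spdef stood at 197 and 217 CPM in GP, the highest of the 12 classes in both libraries. Its neighbours in the order were GOBLET-PRE with 178 and 187 CPM and PANETH-PRE with 181 and 178 CPM, and the GP range over the libraries did not overlap theirs, although the GP mean was 1.13 times that of GOBLET-PRE. Atoh1 was at 128 and 101.2 CPM in GP, at 133 and 107 CPM in GOBLET-PRE, at 148 and 105 CPM in PANETH-PRE and at 110.5 and 92.1 CPM in SEC-PRO, ranges that overlap. With the scaling factors the highest Atoh1 level was in GOBLET cells, with 178 and 235 CPM, and ISC had 15.5 and 20.7 CPM. Without them Atoh1 had 163 and 126 CPM in GP and 117 and 163 CPM in GOBLET, so the order of these classes differed between libraries. Ccl9, which encodes a CC chemokine, was at 204 and 315 CPM in GP, above SEC-PRO with 154 and 238 CPM in the same library each time. PANETH-PRE cells had 865 and 779 CPM, more than either GP value, and were the class with the highest level.

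The stretches just before these 3 genes are shown because the series selects cells by Atoh1 activity and the protein binds E-box motifs. They are the 250 bases before the RefSeq gene start on GRCm38.p6, printed 5′ to 3′ on the strand of the gene, with E-box letters of the form CAGNTG, on either strand, in capitals.
Atoh1, chr6:64728875-64729124, plus strand: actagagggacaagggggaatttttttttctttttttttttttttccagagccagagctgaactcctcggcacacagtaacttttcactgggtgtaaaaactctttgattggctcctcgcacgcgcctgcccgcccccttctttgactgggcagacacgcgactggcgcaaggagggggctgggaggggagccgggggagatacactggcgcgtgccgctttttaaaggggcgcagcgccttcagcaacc
Spdef, chr17:27728952-27729201, minus strand: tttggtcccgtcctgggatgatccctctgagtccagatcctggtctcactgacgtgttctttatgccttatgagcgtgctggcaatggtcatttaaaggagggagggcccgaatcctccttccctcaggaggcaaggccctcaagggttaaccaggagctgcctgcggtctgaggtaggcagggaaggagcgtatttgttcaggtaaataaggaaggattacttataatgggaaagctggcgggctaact
Ccl9, chr11:83578637-83578886, minus strand: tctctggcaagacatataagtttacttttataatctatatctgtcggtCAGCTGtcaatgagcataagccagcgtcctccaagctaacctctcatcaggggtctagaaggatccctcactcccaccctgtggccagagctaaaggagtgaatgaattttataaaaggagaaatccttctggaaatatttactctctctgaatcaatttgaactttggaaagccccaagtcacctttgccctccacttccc
The Ccl9 window held 1 match, CAGCTG, whose first base lies 202 bases before the start, and the Atoh1 and Spdef windows held none. The same letters, CAGNTG, stood in 44.8% of all 32851 RefSeq windows of this length and CAGCTG in 13.0%. A match is a description of the letters only. In GENCODE M21 on the same build the genes lie on chromosome 6, 64729125 to 64731245 (Atoh1), chromosome 17, 27714352 to 27728955 (Spdef) and chromosome 11, 83572919 to 83578636 (Ccl9).

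At the equal depth used here, each of the 3 genes was seen in a minority of GP cells. To compare cells of equal depth each was thinned to 2000 UMIs, which kept 600 of 685 and 647 of 829 GP cells. A UMI of Spdef was found in 39.8% and 42.2% of them, of Atoh1 in 28.7% and 23.5% and of Ccl9 in 33.2% and 42.5%. TUFT cells, of which 130 and 87 were kept, had 3.08% and 6.90%, 7.69% and 5.75% and 5.38% and 5.75%. They came from the same Tom+ sort, so they are no reference free of Atoh1 activity. All 3 genes were thus seen in a larger share of GP than of TUFT cells. The GP shares for Spdef also lay above 27.8% and 29.0% in SEC-PRO, 30.9% and 31.4% in GOBLET-PRE and 27.0% and 29.3% in PANETH-PRE. Ccl9 was seen in a larger share of PANETH-PRE cells, 57.5% and 54.7%, than of GP cells. Atoh1 shares were 23.8% and 22.4% in SEC-PRO, 24.9% and 19.3% in GOBLET-PRE and 23.9% and 17.3% in PANETH-PRE, below GP in each library. GOBLET cells, with 26.8% and 27.6%, overlapped the GP range for Atoh1. Without thinning, the GP shares were 63.1% and 52.4% for Spdef, 44.7% and 29.4% for Atoh1 and 50.1% and 51.7% for Ccl9. Median depth was 4664 and 3008 UMIs per GP cell and 3403 and 2317 per TUFT cell. Atoh1 and Spdef were seen together in 12.5% and 10.4% of thinned GP cells.

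**Figure D1:**
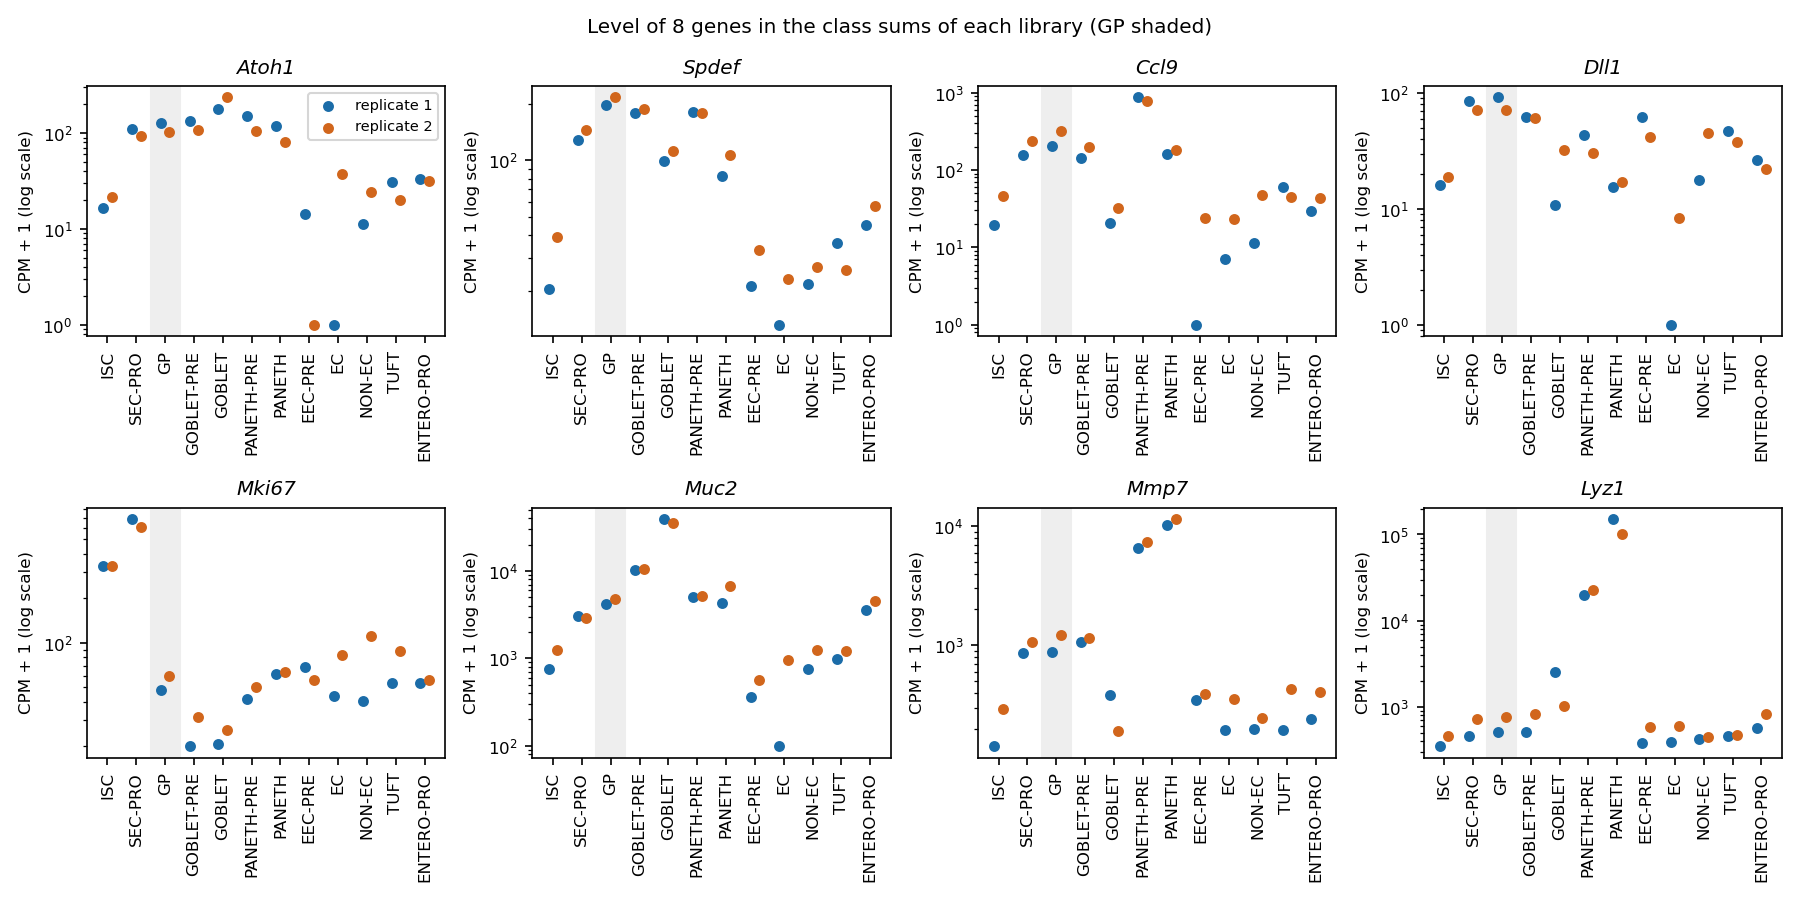
Level of 8 genes in each class (x axis) as CPM + 1 on a log axis, 1 point per library, with GP shaded. Spdef peaks in GP by a small margin, Ccl9 peaks in PANETH-PRE, Mki67 drops from SEC-PRO (687 and 607 CPM) to GP (47.0 and 58.2 CPM), and Lyz1 in GP (517 and 776 CPM) is far below PANETH-PRE.

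GP cells held few UMIs of cell cycle genes. Among the 30 G2/M genes of the list used here (mitotic cyclins, kinetochore and spindle genes), a thinned GP cell had a median of 0 summed UMIs in each library, against 8 and 6 in SEC-PRO. At least 5 such UMIs were found in 1.33 and 0.927% of GP cells and in 66.7 and 55.1% of SEC-PRO cells. For the 30 G1/S genes (DNA replication licensing and nucleotide supply) the shares were 0.833 and 0.618% in GP and 30.1 and 39.0% in SEC-PRO. None of the 30 G2/M genes had a UMI in 64.8 and 61.1% of GP cells, and none of the G1/S genes in 60.2 and 55.5%, so a minority held at least 1 such UMI. A UMI of Mki67, the proliferation antigen, remained in 8.83% and 9.74% of thinned GP cells, beside 65.5% and 57.8% in SEC-PRO, 3.64% and 5.90% in GOBLET-PRE, 4.88% and 3.95% in GOBLET and 3.69% and 2.58% in PANETH. The GP share was thus far below SEC-PRO and above GOBLET-PRE, GOBLET and PANETH in each library. It was also above PANETH-PRE and ENTERO-PRO, but below ISC with 42.7% and 43.0% and EEC-PRE with 11.1% and 15.2%. TUFT (8.46% and 12.6%), NON-EC (5.32% and 20.5%) and EC (2.94% and 14.9%) were below GP in replicate 1 and above it in replicate 2. EEC-PRE, TUFT, NON-EC and EC had only 34 to 130 kept cells per library.

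Secretory genes were present in nearly every GP cell. Muc2 was seen in 98.2% and 99.2% of thinned GP cells and in 43.1% and 51.7% of TUFT cells. The shares were similar in GOBLET-PRE (99.9% and 99.9%) and PANETH-PRE (98.2% and 98.7%), and 91.1% and 90.5% in SEC-PRO. Without scaling factors Muc2 had 5294 and 5949 CPM in GP and 4874 and 3994.5 CPM in free RNA (barcodes of at most 50 UMIs). The part of free RNA in the Muc2 shares was not tested. The 17 goblet mucus and granule genes summed to a median of 148 and 162 of 2000 UMIs in GP, between 102.5 and 95 in SEC-PRO and 322 and 295 in GOBLET-PRE, and the lowest GP cell had 37 and 38. PANETH-PRE had 150 and 152, close to GP. The 19 Paneth granule genes gave 22 and 35 in GP, 20 and 28 in SEC-PRO, 20.5 and 26 in TUFT and 207.5 and 262 in PANETH-PRE. The GP values for Paneth genes lay slightly above those of TUFT, a class that should lack them, and far below PANETH-PRE. The 13 secretory transcription factors gave 4 and 5, against 4 and 4 in SEC-PRO and 4 and 4 in GOBLET-PRE.

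**Figure D2:**
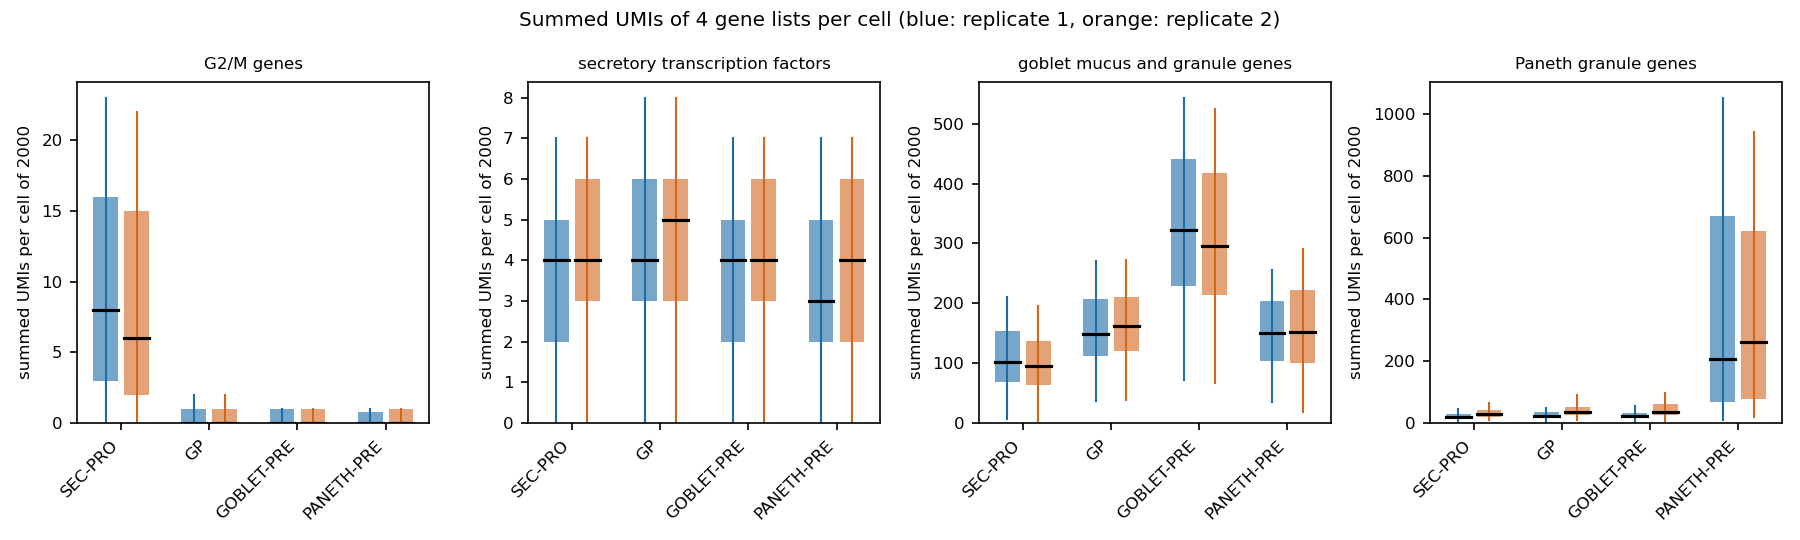
Summed UMIs of 4 gene lists per cell thinned to 2000 UMIs, by class (x axis) and library (colour). Boxes span the quartiles, black lines are medians and whiskers run from the lowest cell to the 90th percentile; GP has the near-zero G2/M level of GOBLET-PRE and PANETH-PRE, a goblet level between SEC-PRO and GOBLET-PRE, and the low Paneth level of SEC-PRO.

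Few genes had their highest level in GP. Of the 10994 genes tested, 25 (0.227%) were highest in GP in both libraries, fewer than in any other class (78 in GOBLET-PRE, 80 in PANETH-PRE, 247 in SEC-PRO). That order was lost without scaling factors, where 194 genes were highest in GP, 132 in GOBLET-PRE, 99 in PANETH-PRE and 37 in PANETH. Of the 25, 22 had a name and at least 20 CPM, and 0 of those reached 1.5 times the second class. The largest ratio was 1.22, for Pdia4, a protein disulfide isomerase of the endoplasmic reticulum (ER), with 204 and 328 CPM in GP and 167 and 268 CPM in SEC-PRO. Creb3l1, an ER-bound transcription factor of secretory cells, had 312 and 322 CPM in GP and 267 and 289.9 CPM in GOBLET-PRE. Spdef followed, and the ER chaperone Hsp90b1 had 1638 and 1571 CPM in GP against 1429 and 1428 CPM in SEC-PRO. The other leading genes were Cmtm7, Id4 (an inhibitor of bHLH factors), Zfp330, Cpox (a heme synthesis enzyme), Creld2 (an ER stress gene), Srp19 (a subunit of the signal recognition particle), Sub1 and Pigu (a subunit of the GPI transamidase). Their ratios to the second class ran from 1.09 to 1.16.

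GOBLET-PRE had the fewest called genes against GP, and SEC-PRO differed in nearly 1 direction only. A gene was called where its summed counts differed at least 2-fold in the same direction in each library and edgeR's quasi-likelihood test gave a Benjamini-Hochberg adjusted p under 0.05, over 10994 genes. Against GOBLET-PRE 33 genes (0.3%) were higher in GP and 72 (0.655%) lower. Against SEC-PRO 15 (0.136%) were higher and 535 (4.87%) lower, and against PANETH-PRE 103 (0.937%) and 327 (2.97%). The summed counts were larger for every other class: ISC 714 (6.49%) and 1090 (9.91%), ENTERO-PRO 362 (3.29%) and 780 (7.09%), GOBLET 431 (3.92%) and 787 (7.16%), PANETH 252 (2.29%) and 834 (7.59%). For the endocrine and tuft classes they were 597 (5.43%) and 1007 (9.16%) against EEC-PRE, 460 (4.18%) and 1450 (13.2%) against EC, 437 (3.97%) and 1692 (15.4%) against NON-EC and 570 (5.18%) and 937 (8.52%) against TUFT. Class size bears on these counts, since the sums ranged from 129631 UMIs (EC, replicate 1) to 13770059 (GOBLET-PRE, replicate 1), with 3077761 and 2480469 in GP. With cells thinned to 2000 UMIs the counts were 7 and 310 against SEC-PRO, 15 and 49 against GOBLET-PRE and 73 and 177 against PANETH-PRE. The split depended on the scaling for 4 classes: with scaling factors from all tested genes it was 749 and 521 against GOBLET, 881 and 761 against EEC-PRE, 849 and 991 against EC and 741 and 1223 against NON-EC. With DESeq2 size factors it was 581 and 636 against GOBLET, 636 and 1174 against EC and 609 and 1351 against NON-EC, and DESeq2's own test gave 521 and 1157 against NON-EC.

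**Figure D3:**
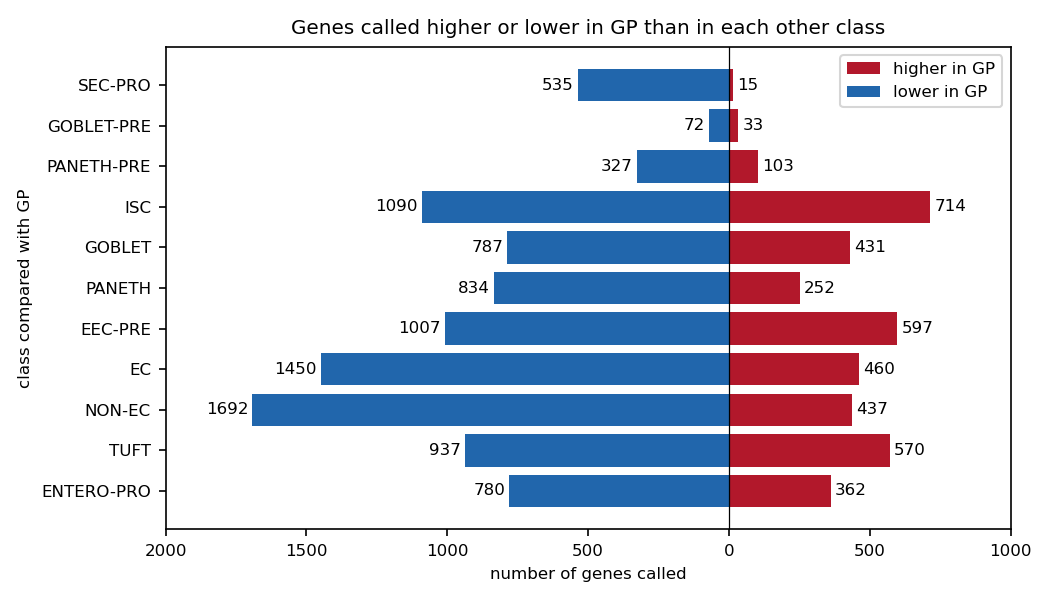
Number of genes called higher (right) or lower (left) in GP than in each other class (y axis), of 10994 tested. The GOBLET-PRE bars are the shortest, 33 and 72 genes, and the SEC-PRO bars are lopsided, 15 and 535.

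Cell cycle genes were lower in GP than in SEC-PRO almost without exception. Of the G2/M list 30 of 30 members were lower, with a median log2 difference of -4.37, and of the G1/S list 29 of 30, with a median of -3.07. Of 18 replication-dependent histone genes 15 were lower (median -2.47), beside a median of -0.07 over all tested genes. Together the 3 lists gave 74 of the 535 lower genes, which were 4.87% of all tested genes. Top2a, the topoisomerase of dividing chromatin, went from 478 and 502 CPM in SEC-PRO to 16.8 and 26.8 CPM in GP, a log2 difference of -4.52 ± 0.16 (SE from the fit over 24 sums). Nusap1, a spindle protein, had 109.9 and 145 CPM in SEC-PRO and 2.54 and 1.29 CPM in GP (-5.95 ± 0.23). In both genes the GP values of the libraries lay far below the SEC-PRO values. Prc1 (midzone of the spindle, -4.77 ± 0.20), Kif20b (a kinesin, -4.53 ± 0.20), Pclaf (a PCNA partner, -4.20 ± 0.39), Hist1h1b (-4.83 ± 0.34) and Hist1h3c (-4.78 ± 0.41) were further large differences among abundant genes, and of the list members the mitotic kinase Aurka (-6.27 ± 0.39) and the kinetochore gene Ndc80 (-5.60 ± 0.36). Histone genes occur in near-identical copies, so the split of reads among them is uncertain.

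Cell cycle exit genes gave few calls between GP and SEC-PRO. Of 16 such genes 0 were called higher in GP than in SEC-PRO. Over all tested genes only 0.136% were called higher, so this count does not set the list apart. The list had 2 genes called lower, beside 4.87% of all tested genes: Cdkn2c (-2.16 ± 0.43) and Cdkn2d (-2.12 ± 0.26), both inhibitors of CDK4 and CDK6. The p21 gene Cdkn1a was at 74.4 and 82.1 CPM in GP and 54.5 and 70.4 CPM in SEC-PRO, and at 168 and 187 CPM in GOBLET-PRE, where it was higher than in GP (log2 -1.18 ± 0.18 for GP minus GOBLET-PRE). Other genes lower in GP than in SEC-PRO were Sox4, an early progenitor factor (30.2 and 30.7 CPM against 88.0 and 98.5 CPM), Cd44, a Wnt target (-1.47 ± 0.24), Lgr5, the stem cell receptor, at a low level in both (0.762 and 2.59 CPM against 4.46 and 7.68 CPM), Notch1 (1.02 and 0.646 CPM against 3.68 and 3.58 CPM) and Jag1 (2.79 and 0.323 CPM against 6.40 and 3.07 CPM). The Jag1 call was lost in 4 of the other fits.

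The 15 genes higher in GP than in SEC-PRO included 4 whose log2 CPM averaged 5 or more over all sums. Rep15, a RAB15 effector counted here with the goblet list, had 214 and 203 CPM in GP and 76.8 and 63.2 CPM in SEC-PRO, a log2 difference of 1.57 ± 0.18. Rgs2, a regulator of G-protein signalling, had 124 and 121 CPM in GP and 47.3 and 38.6 CPM in SEC-PRO (a log2 difference of 1.503 ± 0.148). In both genes the lower GP library stood well above the higher SEC-PRO library. Nupr1, a stress-induced chromatin protein, differed by 1.27 ± 0.13 and Gde1, a glycerophosphodiester phosphodiesterase, by 1.15 ± 0.19. The other 11, listed here after their values were seen, had at most 26.4 CPM in GP: Rapgef3, Slc2a10, Pck1, Acad11, Guca1a, Nxnl2, Klhdc8a, Tstd3, Tmem67, 4930404N11Rik and Gm37306.

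Secretory genes stood slightly higher in GP than in SEC-PRO as whole lists, with few genes past the call. All 17 goblet genes had a positive difference, with a median of 0.56, and 1, Rep15, was called. Muc2 went from 3072 and 2883 CPM in SEC-PRO to 4139 and 4770.2 CPM in GP and Fcgbp, an IgG Fc-binding mucus protein, from 2646 and 3697 CPM to 4331 and 5434 CPM, short of the call. All 26 tested genes of ER folding and the unfolded protein response were positive (median 0.33), as were all 33 genes of protein translocation and ER-to-Golgi transport (median 0.32), and 0 of either list were called. The median over all tested genes was -0.07. These small shifts share 1 scaling factor per sum and were each below 2-fold. Of the 13 secretory transcription factors 11 had positive differences, 0 were called higher and Sox4 was called lower. Spdef differed by 0.61 ± 0.11, Gfi1, a repressor that blocks the endocrine fate, by 0.58 ± 0.23 and Atoh1 by 0.17 ± 0.16.

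Against GOBLET-PRE the goblet products were the list with the most members called lower in GP. All 17 goblet genes were negative in GP minus GOBLET-PRE (median -1.09, beside 0.02 over all tested genes). Of them 5 were called lower, beside 0.655% of all tested genes. Zg16, a lectin of the mucus layer, had 3325 and 3250.3 CPM in GP and 30278 and 21628 CPM in GOBLET-PRE (-2.98 ± 0.58). It was also unevenly spread: a thinned GP cell showed a Zg16 UMI in 66.7% and 66.6% of cases, GOBLET-PRE in 88.5% and 90.1% and TUFT in 44.6% and 39.1%. Capn9, a stomach and gut calpain, differed by -1.71 ± 0.15 and Retnlb, the goblet protein RELMβ, by -2.04 ± 0.58. Muc2 (-1.23 ± 0.44) and Fcgbp (-1.09 ± 0.41) were lower by value and did not pass the call. Outside the list Mptx1, a pentraxin, had 11.2 and 62.1 CPM in GP and 76.4 and 266 CPM in GOBLET-PRE, a gene whose GP level also differed between the libraries, by 2.37 on the log2 scale. Tm4sf4 (-1.86 ± 0.27), Selenop (selenoprotein P, -1.64 ± 0.46), Clec2h (-1.53 ± 0.23), Gde1 (-1.53 ± 0.14) and Tac1, which encodes the substance P precursor (-1.52 ± 0.19), were lower as well. Gde1 was thus intermediate in GP, with 16.1 and 21.0 CPM in SEC-PRO, 35.1 and 47.5 CPM in GP and 118 and 115 CPM in GOBLET-PRE.

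The 33 genes higher in GP than in GOBLET-PRE, 0.3% of those tested, included genes known from chromatin, replication and Wnt signalling. Hmgn2, a nucleosome-binding protein, had 96.5 and 115 CPM in GP and 33.3 and 44.7 CPM in GOBLET-PRE (1.46 ± 0.12), and its relative Hmgn1 57.1 and 94.7 CPM in GP and 22.2 and 35.6 CPM in GOBLET-PRE (1.39 ± 0.14). The 2 libraries of GP lay above both GOBLET-PRE values in each gene. Stmn1, a microtubule destabiliser of cycling cells, differed by 1.34 ± 0.34, the MYC-responsive gene Cdca7 by 1.37 ± 0.24, and the mitotic genes Ccnb2, Cenpf and Cdca3 by 1.75 ± 0.29, 1.58 ± 0.22 and 1.40 ± 0.29. Clca3b, a chloride channel accessory protein of the family that includes the goblet gene Clca1, had 218 and 236 CPM in GP and 64.2 and 86.5 CPM in GOBLET-PRE (1.62 ± 0.19). Of 13 Wnt target and feedback genes, 2 were higher, the negative regulator Axin2 (23.4 and 23.6 CPM against 9.03 and 10.7 CPM) and Cd44 (1.22 ± 0.31). The calls of Cd44 and of the replication gene Mcm6 were lost in 5 of the other fits each. Sox4 differed by 1.31 ± 0.18. Of the 11 stem cell genes Axin2 and Cdca7 were called and all 11 were positive (median 0.66). Further genes of the 33, named after their values were seen, were Hmgb2 (161 and 255 CPM in GP and 78.7 and 117 CPM in GOBLET-PRE), Nap1l1, Etv5, Smo and Hmga2.

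Smaller differences ran through other lists. All 27 ribosome biogenesis genes were positive, with a median of 0.60 and 0 called, while the 80 tested ribosomal protein genes had a median of 0.07. Of 16 immediate-early and heat-shock genes 14 were negative (median -0.69) and 3 were called lower in GP: Dusp1 (-1.46 ± 0.14), Atf3 (-1.39 ± 0.25) and Cyr61 (-1.06 ± 0.14). This list responds to cell isolation, and the part of handling in its differences was not tested. The growth factor genes Bmp2 (-1.51 ± 0.21) and Areg (-1.42 ± 0.20) were lower too, 2 of 7 tested niche ligands. Lists that hardly differed were ER folding (median -0.06), translocation and transport (median -0.12) and mucin glycosylation (median -0.17), with 0 called in each. G2/M and G1/S genes were called higher in 2 and 1 of 30 members. Over all tested genes 0.3% were called higher in GP than in GOBLET-PRE and 0.655% lower.

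Paneth products set GP apart from PANETH-PRE. All 19 tested Paneth granule genes were lower in GP, with a median log2 difference of -4.80 against -0.05 over all tested genes. Of all tested genes 2.97% were called lower. Lyz1, lysozyme, had 517 and 776 CPM in GP and 19899 and 22987 CPM in PANETH-PRE (-5.07 ± 0.45). TUFT cells had 463 and 479 CPM, and a Lyz1 UMI in 54.6% and 60.9% of thinned cells against 60.2% and 72.2% in GP. Lyz1 was thus higher in GP than in TUFT in both libraries, but not higher than in every class without Paneth cells. GOBLET cells had 2561 and 1033 CPM. A Lyz1 UMI was seen in 73.5% and 66.0% of EC cells and 59.3% and 73.9% of EEC-PRE cells. In SEC-PRO it was 58.8% and 64.5% and in ISC 51.5% and 59.0%, below GP in both libraries. The 19 genes summed to 11334 and 20819 CPM in GP, with 118535 and 207631 CPM in free RNA (barcodes of at most 50 UMIs, without scaling factors), and the part of free RNA in the GP level was not tested. Alpha-defensins gave some of the largest differences: Defa34 (-6.16 ± 0.34), Defa32 (-5.26 ± 0.48), Defa17 (-5.18 ± 0.48), Defa36 (-5.11 ± 0.51) and Defa3 (-5.09 ± 0.36). These genes are near-identical copies, and their reads may be split among them. Clps, colipase, differed by -5.19 ± 0.53, Habp2, a serine protease, by -5.47 ± 0.20 and Samd5 by -6.10 ± 0.21.

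Mmp7 behaved differently from the other Paneth genes. This metalloproteinase, which processes defensins, had 879 and 1228 CPM in GP, 867 and 1064 CPM in SEC-PRO and 1069 and 1149 CPM in GOBLET-PRE, below 6568 and 7399 CPM in PANETH-PRE but above 193 and 427 CPM in TUFT and 141 and 291 CPM in ISC. A UMI was found in 71.0% and 72.6% of thinned GP cells, 68.5% and 73.0% of SEC-PRO, 71.2% and 72.2% of GOBLET-PRE and 14.6% and 37.9% of TUFT cells. The ranges of GP, SEC-PRO and GOBLET-PRE overlapped, and all 3 were above TUFT. Mmp7 was the only Paneth list member called higher in GP than in ISC (2.31 ± 0.29).

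Stem cell, Wnt and antigen presentation genes were also lower in GP than in PANETH-PRE. Of 11 stem cell genes 7 were lower, among them Lgr5 (0.762 and 2.59 CPM against 51.2 and 57.7 CPM) and Olfm4 (30.7 and 28.1 CPM against 188 and 188 CPM), and of 13 Wnt targets 5 were lower, among them Ephb3, which positions cells along the crypt (8.13 and 6.79 CPM against 94.2 and 110.3 CPM). Wnt3, the ligand that Paneth cells supply, had 14.2 and 10.3 CPM in GP and 143 and 130.5 CPM in PANETH-PRE (-3.46 ± 0.18), and Egf differed by -2.23 ± 0.46. Sox9, a Wnt-dependent factor needed for Paneth cells, had 126 and 114 CPM in GP and 268 and 274 CPM in PANETH-PRE. All 11 stem cell genes and 12 of the 13 Wnt targets had negative differences. Of 7 MHC class II genes 4 were lower, H2-Aa by -1.64 ± 0.28, and 6 of 16 immediate-early genes were lower. Over all tested genes 2.97% were called lower in GP than in PANETH-PRE. Bhlha15 (MIST1), which enlarges the secretory apparatus, was lower (-1.58 ± 0.16), and so were the chemokines Ccl9 (-1.72 ± 0.23) and Ccl6 (-1.32 ± 0.24).

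Goblet genes went both ways between GP and PANETH-PRE. Clca1, a mucus-processing protease, had 2099 and 3891 CPM in GP and 136 and 648 CPM in PANETH-PRE (3.13 ± 0.54), and Fcgbp 4331 and 5434 CPM and 914 and 1552 CPM (2.03 ± 0.43). Clca1 and Fcgbp were the 2 list members called higher, whereas 3 were lower, among them Retnlb (-5.01 ± 0.52) and Ramp1, a receptor activity-modifying protein (-2.13 ± 0.15). Over all tested genes 0.937% were called higher and 2.97% lower. Muc2 did not separate the classes, with 4139 and 4770.2 CPM in GP and 5091 and 5117 CPM in PANETH-PRE. Further genes higher in GP were Scin, an actin-severing protein (3.40 ± 0.49), the keratin gene Krt20 (2.69 ± 0.47), Rgs2 (2.35 ± 0.21), Fer1l6 (2.25 ± 0.30), Trim31 (2.10 ± 0.21), Clec2h (1.89 ± 0.39), Fabp2 (1.56 ± 0.35), a fatty acid-binding protein of enterocytes, and Hist1h2bc (1.81 ± 0.23). The 81 tested nuclear genes of oxidative phosphorylation had 76 positive differences (median 0.39) and 0 calls. G2/M and G1/S genes had 0 calls in either direction.

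**Figure D4:**
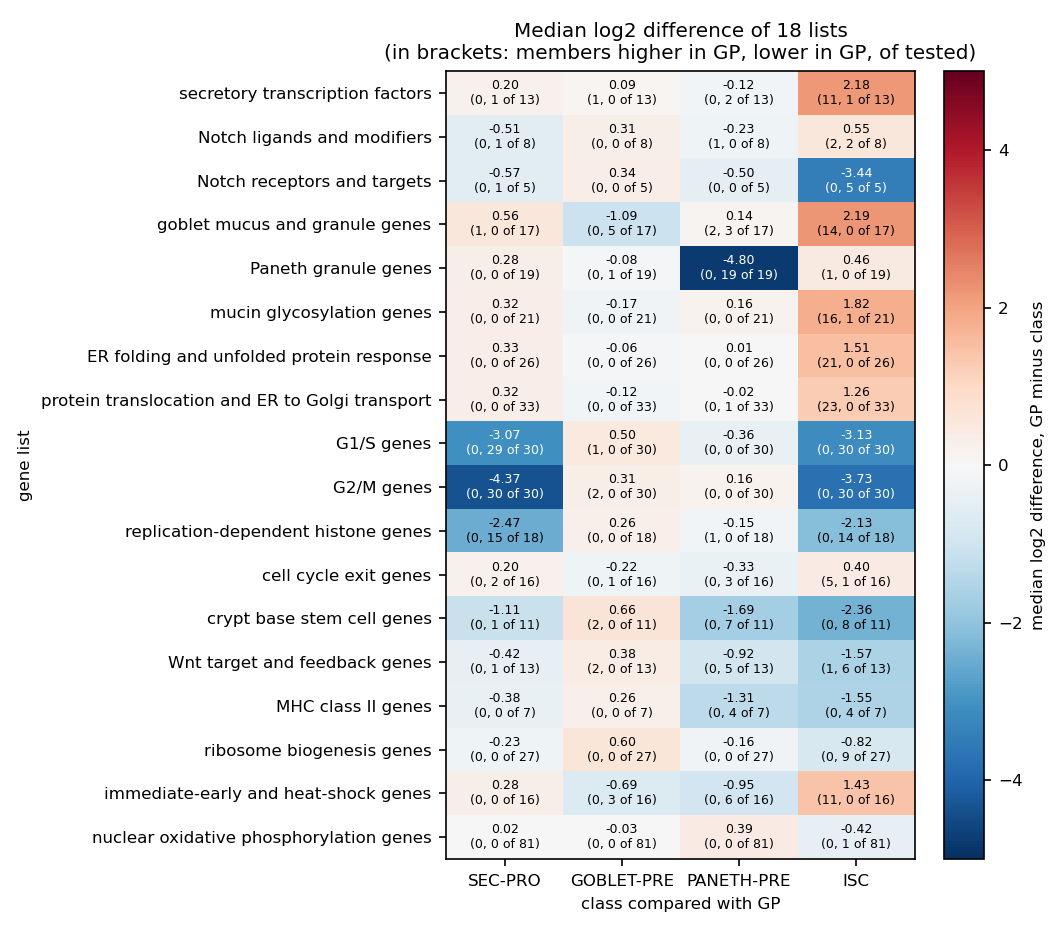
Median log2 difference (GP minus class) of 18 gene lists (rows) against 4 classes (columns), with the members called higher, lower and tested in brackets. Cell cycle lists set GP apart from SEC-PRO and ISC, goblet genes from GOBLET-PRE, and Paneth granule genes from PANETH-PRE, where 19 of 19 were lower.

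Notch components in GP combined a high Dll1 level with low receptor and target levels. Dll1, a Notch ligand, had 90.7 and 70.8 CPM in GP, 85.1 and 70.6 CPM in SEC-PRO, 60.9 and 60.4 CPM in GOBLET-PRE and 42.2 and 29.6 CPM in PANETH-PRE, and 15.02 and 17.9 CPM in ISC. GP and SEC-PRO values overlapped, and GP was called higher than PANETH-PRE (1.17 ± 0.18) and ISC (2.24 ± 0.15). All 5 tested Notch receptors and targets were lower in GP than in ISC (median -3.44): Notch1 went from 30.5 and 21.4 CPM to 1.02 and 0.646 CPM and the feedback gene Nrarp from 27.5 and 23.9 CPM to 2.03 and 2.59 CPM. Jag1 and Jag2, other ligands, were lower in GP than in ISC (2.79 and 0.323 CPM against 6.87 and 5.29 CPM for Jag1). Over all tested genes 9.91% were called lower in GP than in ISC. Kit, a receptor tyrosine kinase found on secretory crypt cells, had 151 and 222 CPM in GP, 155 and 239.7 CPM in SEC-PRO and 96.9 and 148 CPM in GOBLET-PRE. TUFT, with 366 and 577 CPM, and EEC-PRE, with 230 and 283 CPM, were above GP in each library.

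Relative to ISC, secretory lists were higher in GP and cycling and stem cell lists lower. Of 13 secretory transcription factors 11 were higher (median 2.18, beside -0.12 over all tested genes), with Gfi1 3.08 ± 0.31, Spdef 2.77 ± 0.13, Bhlha15 2.67 ± 0.21 and Atoh1 2.55 ± 0.19, and Sox4 was lower (-2.40 ± 0.14). Goblet genes were higher in 14 of 17 (median 2.19), for example the disulfide isomerase Agr2 with 13633 and 11113 CPM in GP and 1430.5 and 2215 CPM in ISC. ER folding genes were higher in 21 of 26 (median 1.51), transport genes in 23 of 33 (median 1.26) and mucin glycosylation genes in 16 of 21. Ern2, the epithelial IRE1β sensor (2.60 ± 0.15), Dnajc10 (2.32 ± 0.15), Kdelr3, an ER retrieval receptor (2.62 ± 0.18), the mucin core enzyme Gcnt3 (2.58 ± 0.13) and Galnt5 (2.74 ± 0.25) were among the largest. Lower were all 30 G2/M and all 30 G1/S genes, 8 of 11 stem cell genes with Olfm4 from 1811 and 847 CPM to 30.7 and 28.1 CPM, and 9 of 27 ribosome biogenesis genes, among them Ncl (-1.37 ± 0.10). Immediate-early genes were higher in 11 of 16, among them Fosb (1.89 ± 0.25), and MHC class II genes lower in 4 of 7. Over all tested genes 6.49% were called higher in GP than in ISC and 9.91% lower. Kcnq1ot1, a long noncoding RNA, had a log2 difference of -5.53 ± 0.21. The chemokine Ccl25 went against its list, with 175 and 134 CPM in ISC and 18.3 and 25.5 CPM in GP.

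Read along the path from SEC-PRO to GOBLET-PRE, GP stood further along the losses than along the gains. The position of GP for a gene is 0 at the SEC-PRO level and 1 at the GOBLET-PRE level on the log2(CPM + 1) scale. Among 808 genes called lower in GOBLET-PRE than in SEC-PRO the median position was 0.788 and 0.814, and among 224 genes called higher it was 0.330 and 0.403. GP lay between the 2 classes in both libraries for 534 (66.1%) of the lower and 184 (82.1%) of the higher genes, and 64 lower genes (7.92%) lay beyond GOBLET-PRE in both. The genes were chosen by GOBLET-PRE and SEC-PRO levels, which are also the ends of the scale, so positions are a description. With thinned cells the median positions were 0.798 and 0.819 for the lower and 0.373 and 0.431 for the higher genes.

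Along the path to PANETH-PRE GP stood far along the losses and near the start of the gains. Among 586 genes lower in PANETH-PRE than in SEC-PRO the median position of GP was 0.857 and 0.899, and 121 (20.6%) lay beyond PANETH-PRE in both libraries. Among 355 genes higher in PANETH-PRE the median position was 0.104 and 0.105. For 70 of these 355 (19.7%) GP was even below SEC-PRO in both libraries, and 185 (52.1%) lay between. The 2 paths share their SEC-PRO end, so their losses overlap by construction.

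**Figure D5:**
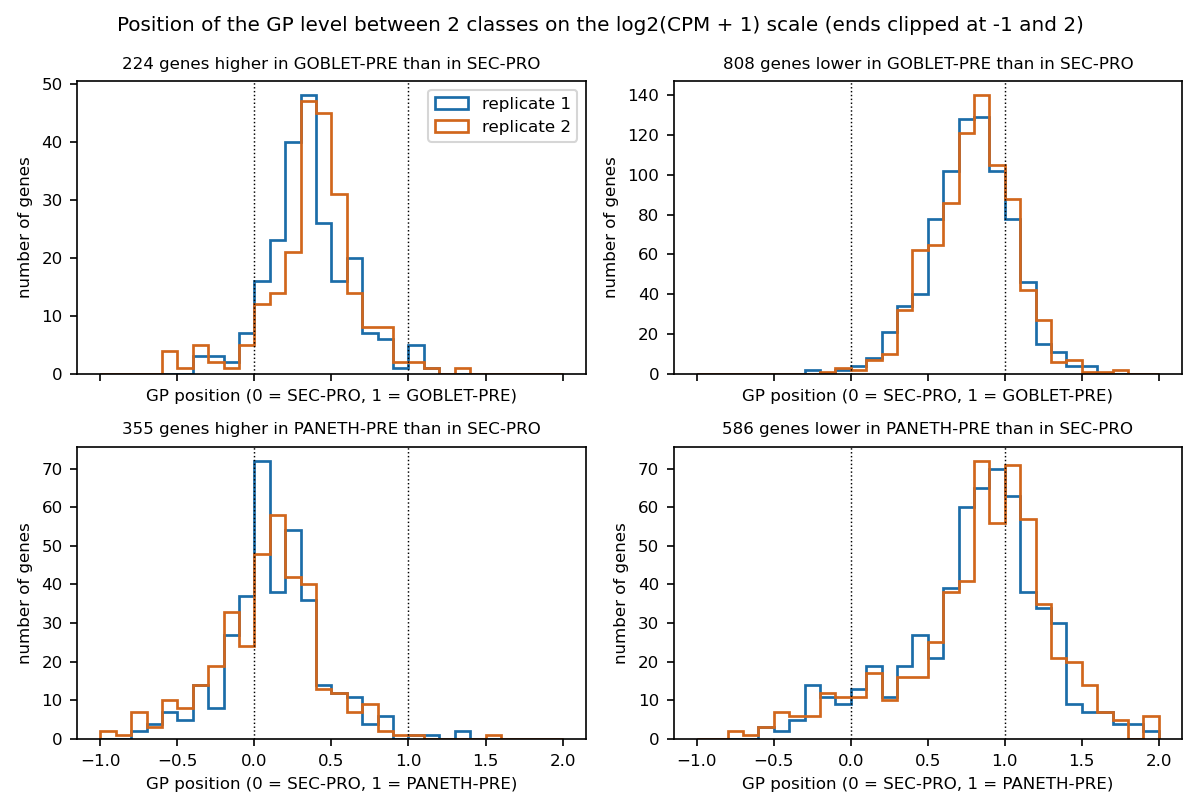
Histograms of the GP position (x axis, 0 for SEC-PRO and 1 for the class named) over genes that differ between the ends, 1 line per library. Losses centre on 0.788 and 0.814 (GOBLET-PRE) and 0.857 and 0.899 (PANETH-PRE), gains on 0.330 and 0.403 and on 0.104 and 0.105.

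The other 7 classes differed from GP in their own products. Against GOBLET cells, Zg16 was lower in GP (-6.24 ± 0.68), Lgals3, a galectin, had 5.84 and 7.76 CPM in GP and 939 and 730.1 CPM in GOBLET, and Mxd1, an antagonist of MYC, 20.8 and 37.2 CPM and 1542 and 1516 CPM. In the other direction Npm3, a nucleolar chaperone, and Ppp1r1b had no UMI in the 126 GOBLET cells, and with 3 counts as the limit per library they were at least 2.02-fold and 2.58-fold higher in GP. Against PANETH, Defa29 (-8.54 ± 0.70), Clps (-8.50 ± 0.61) and Defa35 (-8.36 ± 0.26) were lower in GP and Scin (3.11 ± 0.49), Clca1 (2.90 ± 0.54) and Hsd11b2 (2.76 ± 0.27) higher. Against ENTERO-PRO, the absorptive genes Apoa1 (-9.13 ± 0.62), Fabp6 (-8.39 ± 0.46) and Apob (-6.96 ± 0.41) were lower and Ccl9 (2.84 ± 0.40), Bhlha15 (2.83 ± 0.41) and Kit (2.72 ± 0.20) higher.

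Most endocrine and tuft genes named here were at very low levels in GP, with Sct an exception. Neurod1, an endocrine transcription factor, had 0 UMIs in GP and 625 and 685 CPM in EEC-PRE, so it was at least 706-fold lower in GP. Neurog3, which starts the endocrine programme, had 1.02 and 1.62 CPM in GP, 2.52 and 7.16 CPM in SEC-PRO and 841 and 813 CPM in EEC-PRE. Chga (-13.23 ± 0.78 against EC), Gcg (-12.55 ± 0.49 against NON-EC) and Dclk1, a tuft cell kinase (-9.53 ± 0.24 against TUFT), were lower as well. Sct, the secretin gene, had 146 and 129.6 CPM in GP, 67.5 and 95.9 CPM in EEC-PRE, 92.4 and 104 CPM in TUFT and 22.7 and 34.4 CPM in ISC. Its level was far above GP in NON-EC, with 3412 and 1926 CPM, and in EC, with 772 and 875 CPM. GOBLET cells, with 336 and 266 CPM, were also above GP. Without scaling factors, Sct had 186 and 162 CPM in GP and 141 and 111 CPM in free RNA. Genes higher in GP than in these classes included Fkbp11 (3.24 ± 0.42 against TUFT), a peptidyl-prolyl isomerase of secretory tissue, Cracr2a (3.65 ± 0.41 against NON-EC), Lrrc26 (5.68 ± 0.70 against EEC-PRE) and Gas6 (4.76 ± 0.77 against EC).

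Single GP cells matched a GP profile from the other library in most cases. Each cell was compared with the 12 class sums of the other library over the tested genes and placed in the one under which its UMI counts were most likely (multinomial likelihood). The classes themselves came from these cells' expression, so the shares describe how sharply they are set apart. GP was nearest for 68.8% (65.1 to 72.2%) of the GP cells of replicate 1 and 73.6% (70.4 to 76.6%) of replicate 2. Most of the rest went to GOBLET-PRE (14.9% and 13.0%) and SEC-PRO (12.7% and 10.3%), and fewer to PANETH-PRE (0.292% and 2.29%), ISC (1.46% and 0.362%) and ENTERO-PRO (1.46% and 0.241%). The second most likely class was SEC-PRO for 47.9% and 53.6% of GP cells and GOBLET-PRE for 22.9% and 21.6%. In reverse, 28.8% and 31.9% of GOBLET-PRE cells, 31.9% and 24.4% of PANETH-PRE cells and 13.4% and 10.8% of SEC-PRO cells were nearest to the GP profile. Of 1334 and 1326 cells placed in GP this way, 471 and 610 were listed as GP. 

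Abundant secreted products varied strongly among GP cells. With 600 and 647 cells of 2000 UMIs, 2691 genes had a mean of at least 0.1 UMI in both libraries, and the median Fano factor (variance over mean, 1 for counting noise alone) was 1.04 and 1.03. It was at least 2 in both libraries for 33 genes, named here by this rule, which was set after other results were seen. The highest named secretory genes were Zg16 (38.5 and 35.6), Spink4, a goblet protease inhibitor (19.0 and 23.7), Itln1, an intelectin (12.8 and 20.1), Tff3, trefoil factor 3 (10.2 and 7.75), Clca1 (6.88 and 7.09), Agr2 (8.46 and 6.63) and Muc2 (5.80 and 6.47). Goblet products thus differed among GP cells far beyond counting noise. At equal relative spread the Fano factor rises with the mean, so its order does not rank relative spread. The mean was 48.7 and 49.2 UMIs per thinned cell for Tff3, and 1.05 and 1.22 for Egr1. No other class is set beside GP here. The antimicrobial lectins Reg3b (11.3 and 13.1) and Reg3g (7.52 and 7.98) varied as well, as did Defa24 (28.4 and 62.6) and the immediate-early genes Egr1 (3.09 and 2.65) and Fos (2.77 and 2.58). Gm42418, a gene model, had the largest value (111 and 84.7). Hmgb2, a chromatin protein of cycling cells, was also among the 33 (2.21 and 2.34).

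The 2 libraries of GP were close, with Paneth products among the exceptions. Of 4860 genes with at least 20 CPM in GP, 44 (0.905%) differed 2-fold or more between the libraries, and the median size of the log2 difference was 0.171. Among the largest were Ang4, an angiogenin of Paneth cells, with 308 and 1569 CPM, Pnliprp2, a pancreatic lipase relative, with 7.11 and 50.1 CPM, and Clps with 24.1 and 107 CPM. In barcodes of at most 50 UMIs, which hold free RNA, the same genes had, without scaling factors, 2469 and 7615 CPM, 147 and 499.8 CPM and 519.7 and 1721 CPM. All 3 were higher in replicate 2 in GP and in free RNA, and the part of free RNA in the GP values was not tested. Hk2, hexokinase 2, differed in GP (141 and 401 CPM) with 172 and 221 CPM in free RNA. In the other direction Mgst3, a glutathione transferase, had 199 and 78.6 CPM.

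Markers of immune, stromal and tuft cells were low in GP, whereas enterocyte genes stood above SEC-PRO in each library. The 9 immune cell genes summed to 0.254 and 4.53 CPM with 3 at 0 UMIs, and the 9 stromal, endothelial and red cell genes to 0.508 and 1.29 CPM with 6 at 0. The 12 tuft genes summed to 10.4 and 7.76 CPM with 2 at 0, against 5192 and 3687 CPM in TUFT. The 18 enteroendocrine genes summed to 180.3 and 155 CPM with 7 at 0, most of it Sct. The 15 enterocyte genes summed to 1376 and 1077 CPM, against 1164 and 706 CPM in SEC-PRO and 2597 and 1572 CPM in GOBLET-PRE. The endocrine gene Chgb, which had 346 and 369 CPM in free RNA, had 1.95 and 4.84 CPM in GP, both without scaling factors, whereas Lyz1 had 4826 and 7339.9 CPM in free RNA and 661 and 968 CPM in GP. Median mitochondrial content was 4.38% and 3.80%, close to SEC-PRO with 4.13% and 3.86%. The listed cells of the libraries shared 12 barcodes, and 0 were GP in both.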

How the data were processed

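Live, Tom-positive ileal crypt cells gave 2 droplet libraries of the 10x 3′ kind, as the labels' protocols state. In the authors' deposited matrices each value is a raw UMI count, and barcodes without cells are included. The submitters' processing notes name Cell Ranger 3.0.2, STAR and mm10. The authors' deposited cell table gives a class for each kept cell, UMI and gene counts, and the percent of mitochondrial UMIs, per the file headers. The sources used here do not say how classes were assigned or doublets treated, and no doublet caller was run. Library names of the table were matched through the matrix names. Listed cells held 32656481 and 27014983 of 66021021 and 40869800 UMIs.

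Counts were summed by class and library into 24 sums and fitted with edgeR 4.0.16 (R 4.3.3), with class and library as terms and 11 residual degrees of freedom. The function filterByExpr kept 10994 of 31053 genes, and TMM factors came from the 1984 genes whose log2 CPM averaged 6 or more. The 2-fold size was read from log2 CPM with a prior count of 2. Shares have exact (Clopper-Pearson) 95% intervals, and these and the 3-count limit for a count of 0 cover counting error only. The fit was tested on simulated data. Genes named are the 8 largest called differences in each direction against SEC-PRO, GOBLET-PRE and PANETH-PRE (log2 CPM averaging 5 or more; fewer where fewer passed), 3 against each other class, up to 3 called members per list with up to 5 going against it, 12 genes highest in GP and 16 fixed markers. Mitochondrial, ribosomal, hemoglobin and unnamed genes were left out of the rankings. The class, its markers and the 27 lists were chosen with earlier results of these data known. Alternatives were other scaling (TMM over all genes, DESeq2 1.42.0 size factors), DESeq2's Wald test, no low-count filter, no library term, thinned cells and single libraries. The p-values come from 2 libraries of 1 group. With the library term, they rest on how far differences between classes vary from library to library, over all 24 sums. That spread may be technical.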

Additional observations from a re-analysis of the deposited data

How the results depend on the processing

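Of the recounts of called genes under other fits that keep both libraries, 113 stayed within 1.5 times the reported count and 19 did not. Cells thinned to 2000 UMIs gave fewer genes lower in GP: 310 against SEC-PRO, 177 PANETH-PRE, 639 ISC, 362 PANETH, 670 EEC-PRE, 962 EC, 1078 NON-EC and 581 TUFT. Genes higher in GP were then 7, 15 and 132 against SEC-PRO, GOBLET-PRE and PANETH, a setting with fewer UMIs and fewer tested genes. DESeq2's Wald test gave 9 and 17 higher against SEC-PRO and GOBLET-PRE, and a fit with no replicate block gave 18 higher and 44 lower against GOBLET-PRE. Scaling factors from all genes gave 749 higher and 521 lower against GOBLET, 849 higher against EC and 741 against NON-EC, and moved the median log2 difference of all genes by 0.31, 0.40 and 0.33 (0.21 for EEC-PRE, 0.10 for PANETH, 0.12 for TUFT). The cause of these shifts was not tested. With 1 library left no residual degrees of freedom remain, so the counts without replicate 1 or without replicate 2 rest on 2-fold differences alone. They ran, higher and lower, 78 to 103 and 732 to 865 against SEC-PRO, 105 to 155 and 194 to 207 against GOBLET-PRE, 444 to 491 and 747 to 814 against PANETH-PRE, 830 to 1127 and 1352 to 1553 against ISC, 3076 to 3670 and 1910 to 2162 against GOBLET, 541 to 756 and 1461 to 1483 against PANETH, 2118 to 2149 and 2217 to 2273 against EEC-PRE, 1521 to 2216 and 2747 to 3255 against EC, 1129 to 1291 and 2672 to 2827 against NON-EC, 1182 to 1402 and 1744 to 1918 against TUFT, 1145 to 1423 and 1184 to 1341 against ENTERO-PRO. The GP share of cells with at least 2000 UMIs was 12.2% and 12.1%. Without scaling 194 genes were highest in GP. Between SEC-PRO and PANETH-PRE, single libraries gave 302 to 344 of the 586 lower genes in between.

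Of the refits of named genes that keep both libraries, 1451 kept side and direction and 66 lost the call, most with thinned cells, no block or DESeq2. Mcm6 and Cd44 against GOBLET-PRE lost it in 5 alternatives each and Jag1 against SEC-PRO in 4. Fcgbp passed it against GOBLET-PRE with thinned cells (-1.12). Neurog3 minus ISC turned to 1.19 without replicate 2 and was -0.25 without replicate 1. The median of Notch ligands against PANETH-PRE turned to 0.14 with thinned cells. Of the list medians against SEC-PRO, GOBLET-PRE, PANETH-PRE and ISC, 122 moved by more than the SD between libraries under the fits that keep both libraries and 477 did not; with 1 library left out 81 moved and 119 did not. With scaling factors from all genes the ER folding median against SEC-PRO was 0.43, and with thinned cells the stem cell median against GOBLET-PRE was 0.97. Genes of a few CPM, such as Lgr5 or Neurog3 in GP, rest on few UMIs.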
